A study of Mus musculus with 37 samples.

Results

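A set of 10 genes of iron handling were followed in bulk RNA-seq of mouse bone-marrow-derived macrophages on their way to osteoclasts. They were chosen by name, and all 10 were found among the 23170 genes of the deposited tables: Trf, Tfrc, Slc11a2, Slc11a1, Fth1, Ftl1, Ncoa4, Hmox1, Slc40a1 and Cp. All 10 passed the filter on low counts, as did 12774 genes in all. The 12 libraries came from cells with the genotype WT or KO, where KO stands for knockout of Arid1a, a DNA-binding subunit of the SWI/SNF chromatin remodelling complex, at day 0, 2 or 4, with 2 libraries in each of the 6 groups. Every library, day 0 included, carries the label of osteoclastic differentiation. How Arid1a was deleted, the strain, sex and age of the mice, the factors added to the cultures, and whether the libraries of a group came from separate animals or cultures are not given in the sources used here, so the p-values measure the spread between these libraries, which may be technical. The series asks how loss of Arid1a alters gene expression and chromatin while macrophages become osteoclasts, the large cells with several nuclei that resorb bone.

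Iron travels in blood on transferrin, which cells take up through the transferrin receptor, and the divalent metal transporter releases the iron from endosomes into the cytosol. Iron that is not used is stored in ferritin or leaves the cell through ferroportin. Macrophages that clear old red cells also free iron from heme and send it back to the blood, which is why ferritin, heme oxygenase and ferroportin are typically abundant in them. Osteoclasts are rich in mitochondria, and in mouse cultures uptake of transferrin-bound iron is known to support their formation.

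The libraries held 16282164 to 18608353 counts each, and levels are given as CPM, counts brought to one common library size after TMM scaling, or as TPM, which also divides by gene length. Arid1a stood at 242 and 197 CPM in the WT libraries of day 0, 169 and 175 at day 2, and 164 and 135 at day 4. In KO libraries it stood at 94.6 and 104, at 118 and 117, and at 84.7 and 97.98 CPM, so its RNA was lower in every KO library but not gone. The cell types were checked against marker lists. The 12 osteoclast markers summed to 173 to 280 CPM in WT at day 0, 2666 to 2947 at day 2 and 15804 to 20446 at day 4, against 201 to 223, 236 to 263 and 1683 to 4708 in KO. The 10 macrophage markers summed to 49298 to 54798, 23904 to 23989 and 2854 to 2982 CPM in WT and to 11647 to 12908, 10873 to 12652 and 3589 to 5598 in KO. Much of that gap at day 0 was Lyz2, lysozyme, with 36018 and 41319 CPM in WT and 36.4 and 49.2 in KO. The macrophage growth factor receptor gene Csf1r stood at 7026 and 7381 CPM in WT and 5630 and 5913 in KO at day 0. Lyz2 also made up most of the WT sum at day 2, at 15261 and 16104 CPM against 89.9 and 74.0 in KO. The median log2 difference of the 10 markers, KO over WT, was -0.20 at day 0 and 0.41 at day 2. The KO libraries of day 4 differed from each other: replicate 1 held 1135 CPM of Acp5 and 1503 of Ctsk, the acid phosphatase and collagen-cutting protease of osteoclasts, and replicate 2 held 298 and 94.4. Between these libraries 1237 of the 12774 genes, among them Tfrc, Slc40a1 and Cp, differed by more than 2-fold. The libraries of WT at day 0 differed so for 1139 genes, those of KO at day 2 for 793, and those of the other groups for 127 to 379. Of the 11 red-cell markers, which also bear on iron, the sum was at most 5.97 CPM in any library, with Hba-a2, Hbb-bt and Gata1 among those at 0 in every group. The 9 stromal markers ranged from 286 to 2911, 4552 to 5708 and 694 to 856 CPM in WT and from 1521 to 3523, 1207 to 4616 and 28.3 to 937 in KO. The lists for neutrophils, B cells, T and NK cells, dendritic cells, and mast cells and basophils summed to at most 25.8 CPM each in any library. The part these other cells have in the values below was not tested, and in bulk RNA fewer cells of a type and less RNA per cell cannot be told apart.

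By day 4 in WT, the genes for transferrin, iron storage, heme breakdown, phagosomal transport and export had fallen, and the endosomal transporter gene Slc11a2 had risen. In edgeR's quasi-likelihood test with Benjamini-Hochberg adjustment over all 12774 genes, 8 of 10 members were called between day 0 and day 4 in WT at an adjusted p under 0.05, 7 lower and 1 higher, where 56.8% of all genes were called, 27.6% lower and 29.1% higher. In KO, 7 members were called over the same days, 5 lower and 2 higher, against 44.6% of all genes, 21.3% lower and 23.3% higher. The median log2 fold change of the 10 members was -2.60 in WT, beside -0.04 for all genes tested, and -1.20 in KO, beside -0.06. From day 2 to day 4, 8 members were called in WT, 1 higher and 7 lower, against 51.8% of all genes, 27.4% higher and 24.4% lower. In KO 5 were called over those days, all lower, against 42.7% of all genes, 22.1% higher and 20.6% lower. From day 0 to day 2, Hmox1 rose and Slc40a1 fell in WT, 2 of 10 members against 17.3% of all genes. In KO none of the 10 was called over those days, where 4.74% of all genes were, although 3 members had an unadjusted p under 0.05 and DESeq2 called 2. The KO effect changed between days 0 and 4 for Trf, Slc40a1 and Slc11a1, 3 of 10 members against 8.56% of all genes, and between days 2 and 4 for Trf, Slc40a1 and Hmox1, 3 of 10 against 3.09%, each time toward a higher level in KO. Between days 0 and 2 it changed for none of the 10 in edgeR's test, with none at an unadjusted p under 0.05 and none in DESeq2, against 0.00783% of all genes. These comparisons share libraries with each other, so their counts are not independent.

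**Figure D1:**
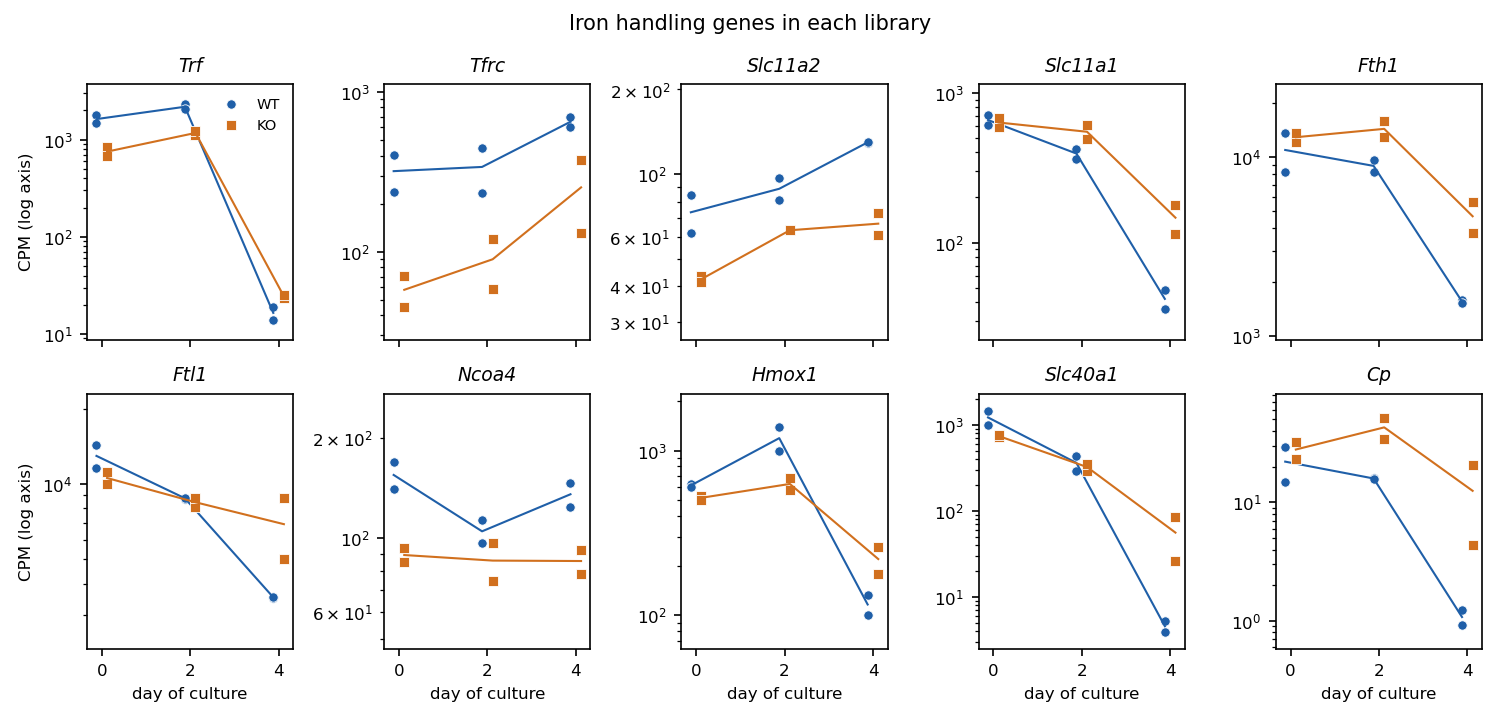
CPM of each gene on a log axis against day of culture; circles are WT libraries, squares are KO libraries, and lines join the group means of 2 libraries. Trf and Slc40a1 drop the furthest in WT by day 4, and for Slc40a1 both KO libraries of day 4 lie above both WT libraries of that day.

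**Figure D2:**
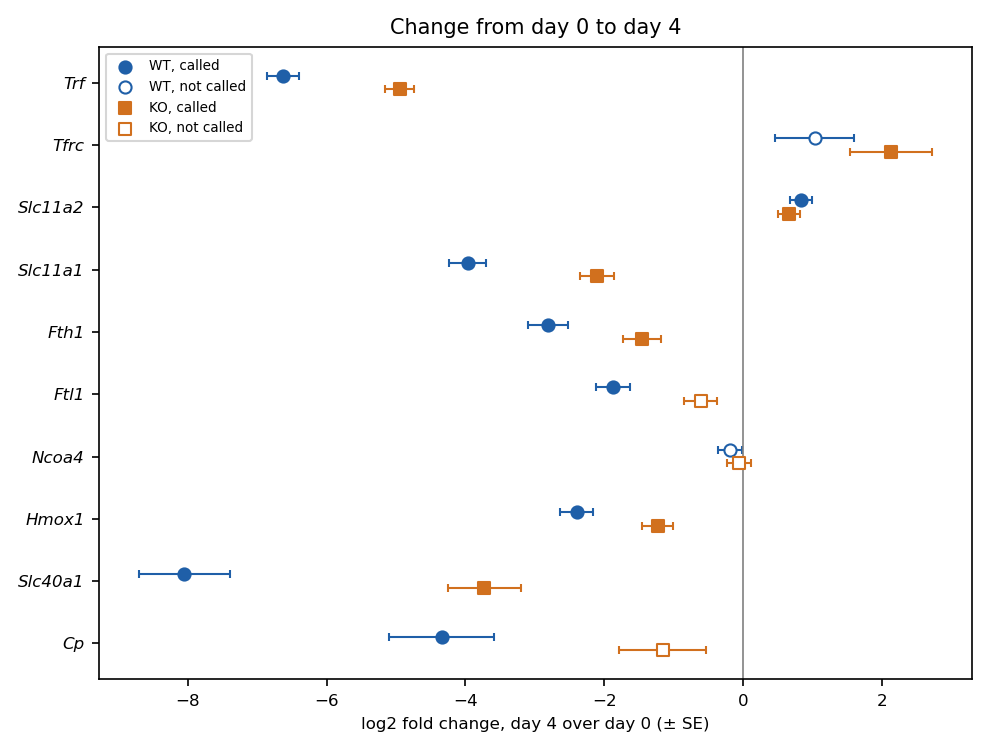
Log2 fold change from day 0 to day 4 for each gene, with bars of 1 SE, for WT (circles) and KO (squares); filled symbols passed an adjusted p under 0.05. The 7 falls in WT reach from -1.88 for Ftl1 to -8.05 for Slc40a1, and the KO values of the same genes lie nearer to 0.

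At day 4, KO and WT differed for 8 of the 10 members, against 25.6% of all genes, 14.5% higher and 11.1% lower in KO: Slc40a1, Slc11a1, Fth1, Ftl1, Hmox1 and Cp were higher in KO, and Slc11a2 and Ncoa4 were lower. The groups did not overlap for any of the 10, which held for 66.5% of all genes. The median log2 difference of the members was 0.94, beside -0.03 for all genes. Marker genes of the cell types differed between the same libraries: 6 of 10 macrophage markers were higher in KO and 2 were lower, with a median of 1.84, and 5 of 12 osteoclast markers were lower and none higher, with a median of -2.59. Adgre1, the surface receptor F4/80 of macrophages, stood at 755 and 2034 CPM in KO and at 81.5 and 72.8 in WT. The part of these shifts in the iron handling values was not tested. By CPM, KO day 4 replicate 1, with the higher osteoclast marker sum, lay nearer to WT than replicate 2 for every member but Ncoa4. For Slc40a1 the KO replicates stood at 25.9 and 85.6 CPM, and for Trf they differed little, at 23.7 and 25.2. For how many of all genes this held is not given here. At day 0 only Trf was called, 1 of 10 members against 1.58% of all genes, and the groups did not overlap for 7, as for 45.6% of all genes. At day 2 it was again Trf, against 4.52% of all genes, and 7 members did not overlap, as for 63.2% of all genes. With so few libraries the calls lean on the spread that all 6 groups share: when only the 4 libraries of day 4 were fitted, none of the 8 differences was called, with log2 values from -0.94 to 3.65 and adjusted p from 0.0634 to 0.137, and 2 of all 11855 genes tested were.

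**Figure D3:**
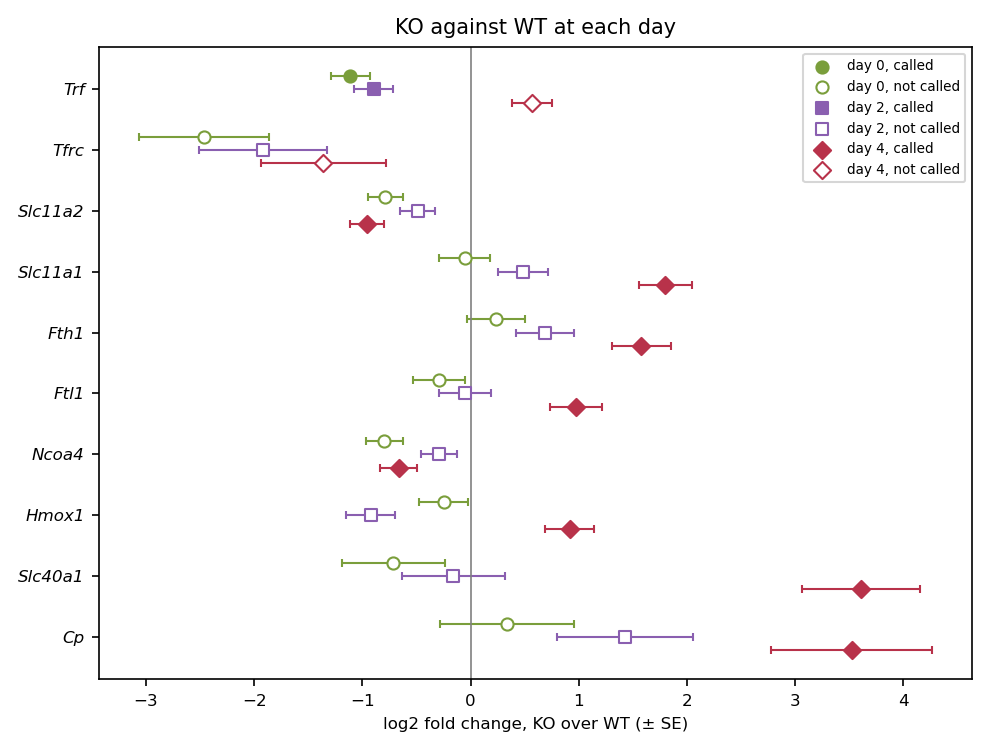
Log2 fold change of KO over WT for each gene at day 0 (circles), day 2 (squares) and day 4 (diamonds), with bars of 1 SE; filled symbols passed an adjusted p under 0.05. The day 4 values of Slc40a1 and Cp are the highest at 3.61 and 3.52, and Slc11a2 and Ncoa4 lie below 0 at all 3 days.

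Per length, the ferritin chains stood far above the other members. In WT at day 0 the order of mean TPM was Ftl1, Fth1, Trf, Slc11a1, Hmox1, Slc40a1, Ncoa4, Tfrc, Slc11a2 and Cp, and the libraries of Ftl1 overlapped those of Fth1, as those of Trf, at 1218 and 1067 TPM, did those of Slc11a1, at 1050 and 1085. At day 4 in WT it was Ftl1, Fth1, Tfrc, Hmox1, Ncoa4, Slc11a1, Slc11a2, Trf, Slc40a1 and Cp, with no overlap between neighbours. Tfrc had moved from the 8th to the 3rd place, with 136 and 86.6 TPM at day 0 and 247 and 280.5 at day 4. In KO at day 4 the order was Ftl1, Fth1, Hmox1, Slc11a1, Tfrc, Ncoa4, Slc11a2, Slc40a1, Trf and Cp. There Ftl1 again overlapped Fth1, Tfrc, at 151 and 50.2 TPM, overlapped Ncoa4, at 74.7 and 91.6, and Slc40a1, at 14.7 and 45.9, overlapped both Slc11a2 and Trf.

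Trf, which encodes transferrin, showed the largest fall of the uptake genes. Its WT libraries held 1775 and 1482 CPM at day 0, 2310.0 and 2052 at day 2, and 19.04 and 13.9 at day 4. The KO libraries held 832 and 675, then 1124 and 1222, then 23.7 and 25.2 CPM. KO was below WT in both libraries at days 0 and 2 and above it in both at day 4. From day 0 to day 4 Trf fell 98.7-fold in WT (log2 -6.63 ± 0.23, SE, adjusted p = 1.54e-06) and 30.8-fold in KO (-4.95 ± 0.21, adjusted p = 5.67e-06). Both falls passed in each of 21 fits, which varied the scaling, the filter, the test, the block and the libraries. KO was 2.16-fold lower than WT at day 0 (log2 -1.11 ± 0.18, adjusted p = 0.0264) and 1.86-fold lower at day 2 (-0.89 ± 0.18, adjusted p = 0.0331), while the day 4 difference of 0.57 ± 0.18 missed the threshold at adjusted p = 0.0511. The day 0 difference lost its call without WT day 0 replicate 1 (-1.003), WT day 2 replicate 2 (-1.11), KO day 0 replicate 1 (-1.29) or KO day 0 replicate 2 (-0.98), and when day 0 was fitted alone (-1.13, adjusted p = 0.108). The day 2 difference lost it without WT day 2 replicate 1 (-0.82) or 2 (-0.98) and without KO day 2 replicate 1 (-0.85) or 2 (-0.96). The KO effect itself moved upward by 1.68 ± 0.26 from day 0 to day 4 (adjusted p = 0.00998), a call that held with each library left out. From day 2 to day 4 it moved by 1.46 ± 0.26 (adjusted p = 0.0276), not called without WT day 2 replicate 1 (1.37) or 2 (1.55), WT day 4 replicate 2 (1.26), KO day 2 replicate 1 (1.41) or KO day 2 replicate 2 (1.51), nor when days 2 and 4 were fitted alone (1.55, adjusted p = 0.0612).

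Tfrc, the receptor that brings transferrin into the cell, did not share that fall. WT libraries held 402 and 237 CPM at day 0, 446 and 233 at day 2, and 606 and 695 at day 4. KO libraries held 70.7 and 45.1, then 121 and 59.0, then 374 and 131 CPM. KO lay below WT at every day with no overlap, and in each genotype the day 4 libraries lay above those of day 0. Replicates were far apart, so few of these differences passed: the rise of 2.13 ± 0.59 in KO from day 0 to day 4, 4.37-fold, had an adjusted p of 0.0203, while the WT value of 1.03 ± 0.57 had 0.161. KO over WT stood at -2.46 ± 0.60 at day 0 (adjusted p = 0.0997), -1.92 ± 0.59 at day 2 (0.101) and -1.36 ± 0.58 at day 4 (0.122). DESeq2 called all 3 of these, with adjusted p of 0.000114, 0.00369 and 0.03. At each day it was 1 of 3 that called the difference among the 9 alternative fits that left no single library out. Replicate 1 lay above replicate 2 in every group but WT at day 4. The KO rise was no longer called without KO day 0 replicate 1 (2.48) or 2 (1.82), without KO day 4 replicate 1 (1.18), the library with the higher osteoclast marker level, or when the KO days 0 and 4 were fitted alone (2.12, adjusted p = 0.0611).

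Slc11a2 encodes the divalent metal transporter that carries iron out of the endosome. Its WT libraries held 84.5 and 62.1 CPM at day 0, 96.7 and 80.9 at day 2, and 129 and 130.2 at day 4. KO libraries held 43.6 and 41.3, then 63.3 and 63.2, then 72.9 and 60.7 CPM. The KO level at day 4 reached the range of WT at day 0, and KO lay below WT at every day. The gene rose from day 0 to day 4 in WT (0.82 ± 0.16, 1.77-fold, adjusted p = 0.00208) and in KO (0.65 ± 0.16, 1.57-fold, adjusted p = 0.0103). KO was 1.94-fold lower at day 4 (-0.96 ± 0.16, adjusted p = 0.00397), and the values of -0.79 at day 0 (adjusted p = 0.0536) and -0.49 at day 2 (0.11) were not called. The KO rise lost its call without KO day 0 replicate 2 (0.60) or KO day 4 replicate 1 (0.52). The KO effect on Slc11a2 differed between day 0 and day 4 by -0.17 ± 0.22, which was not called.

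A stretch of the Tfrc promoter is shown because Tfrc was the uptake gene with the widest gap between genotypes at day 0. The window is from RefSeq on GRCm38.p6, chr16:32608892-32608921, plus strand, 230 to 201 bases before the start site at 32609122. Another Tfrc start site, at 32608896, lies inside this stretch. Capitals mark a hypoxia response core (ACGTG) and a cyclic AMP response motif (TGACG).
Tfrc: gtACGTGcggaaggaagTGACGtagatcca
Both motifs were searched on both strands in the 250 bases before each start and stand in 16.6% and 17.8% of 32851 RefSeq mouse promoters. They were also both found at Ncoa4, so at 2 of the 6 members with a promoter in the table, and a match is a description only.

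Slc11a1 encodes a transporter of the phagosome membrane that moves divalent metals in macrophages. WT libraries held 709 and 606 CPM at day 0, 362 and 423 at day 2, and 48.3 and 35.9 at day 4. KO libraries held 593 and 673, then 489 and 609, then 114 and 179 CPM. The genotypes overlapped at day 0, and KO lay above WT at days 2 and 4. Slc11a1 fell 15.6-fold by day 4 in WT (-3.97 ± 0.26, adjusted p = 1.11e-05) and 4.32-fold in KO (-2.11 ± 0.24, adjusted p = 0.000286), both in each of 21 fits. KO was 3.48-fold above WT at day 4 (1.80 ± 0.24, adjusted p = 0.00174). The KO effect rose by 1.86 ± 0.33 from day 0 to day 4 (adjusted p = 0.0161), a call lost without WT day 4 replicate 2 (1.66), KO day 0 replicate 1 (1.77) or KO day 0 replicate 2 (1.94), and in the fit without day 2 (1.93, adjusted p = 0.0587). In TPM, Slc11a1 stood 22.6 and 31.1 times above its relative Slc11a2 in WT at day 0 and 1.47 and 1.01 times at day 4. In KO the ratio went from 42.2 and 47.3 to 5.69 and 7.52.

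Ferritin is a shell of heavy chains, encoded by Fth1 and able to oxidise iron, and light chains, encoded by Ftl1, which help to lay it down as mineral. Fth1 and Ftl1 were among the 4 highest genes by TPM in every library of days 0 and 2 and in both KO libraries of day 4. In WT at day 4, Fth1 ranked 11th and 17th and Ftl1 4th and 6th. Together they held 6.48% and 4.82% of the full TPM scale, the fixed total to which TPM values of a library are set, in WT at day 0, 4.75% and 4.41% at day 2, and 1.33% and 1.29% at day 4. In KO they held 5.46% and 5.84%, then 5.05% and 5.62%, then 2.32% and 3.54%. The WT libraries of day 4 stood below all others, and the KO libraries of day 4 lay between them and the earlier days. Both genes have near-identical copies in the mouse genome, and how reads were shared among copies is not given in the sources used here, so their absolute levels are uncertain.

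**Figure D4:**
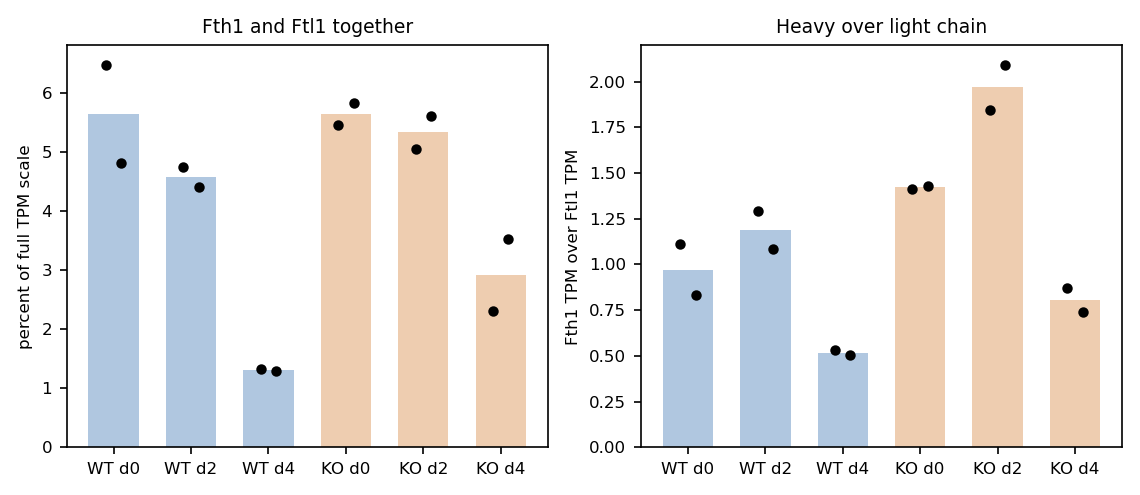
Left, the percent of the full TPM scale held by Fth1 and Ftl1 together; right, the TPM of Fth1 over that of Ftl1; bars are group means, dots the 2 libraries, and d0, d2 and d4 the days. The share is lowest in WT at day 4, and the ratio is highest in the KO libraries of day 2, at 1.85 and 2.09.

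Fth1 stood at 13659 and 8239.8 CPM in WT at day 0, 9644 and 8206 at day 2, and 1598 and 1531 at day 4. In KO it stood at 12120.5 and 13674, then 12859 and 15864, then 3761 and 5589. The genotypes overlapped at day 0, and KO lay above WT at days 2 and 4. Fth1 fell by day 4 in WT (log2 -2.81 ± 0.29, adjusted p = 6.99e-05) and 2.76-fold in KO (-1.46 ± 0.27, adjusted p = 0.00287). It was 2.99-fold higher in KO than in WT at day 4 (1.58 ± 0.28, adjusted p = 0.00479), and the values of 0.24 at day 0 and 0.69 at day 2 (adjusted p = 0.16) were not called. Between days 0 and 4 the KO effect on Fth1 shifted by 1.34 ± 0.38, adjusted p = 0.0637, which was not called.

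Ftl1 stood at 14347 and 11559.5 CPM in WT at day 0, 8711 and 8829 at day 2, and 3500.3 and 3546 at day 4. In KO it stood at 9993 and 11145, then 8099 and 8810.5, then 5032 and 8787. KO replicate 2 of day 4 was as high as the day 2 libraries. Ftl1 fell 3.68-fold by day 4 in WT (-1.88 ± 0.25, adjusted p = 0.000256), and its KO value of -0.61 ± 0.24 was not called (adjusted p = 0.0666). KO was 1.96-fold above WT at day 4 (0.97 ± 0.24, adjusted p = 0.0202), a call lost without KO day 4 replicate 2 (0.52), WT day 4 replicate 1 (0.96) or WT day 4 replicate 2 (0.98). Its KO effect shifted by 1.27 ± 0.34 between days 0 and 4, adjusted p = 0.0544, which was not called either. The heavy to light ratio of TPM was 1.11 and 0.83 in WT at day 0, 1.29 and 1.08 at day 2 and 0.53 and 0.50 at day 4, and in KO it was 1.41 and 1.43, 1.85 and 2.09, and 0.87 and 0.74. It was lowest at day 4 in each genotype and higher in KO than in WT at every day, with no overlap.

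The promoters of the ferritin genes are shown because these genes had the highest levels and fell together in WT. Each is the 250 bases before the RefSeq start site on GRCm38.p6, Fth1 at chr19:9982396-9982645 on the plus strand and Ftl1 at chr7:45459887-45460136 on the minus strand. Capitals mark ATTGG, the CCAAT box read on the other strand, 7 to 3 bases before the start in Fth1 and 78 to 74 and 34 to 30 bases before it in Ftl1.
Fth1: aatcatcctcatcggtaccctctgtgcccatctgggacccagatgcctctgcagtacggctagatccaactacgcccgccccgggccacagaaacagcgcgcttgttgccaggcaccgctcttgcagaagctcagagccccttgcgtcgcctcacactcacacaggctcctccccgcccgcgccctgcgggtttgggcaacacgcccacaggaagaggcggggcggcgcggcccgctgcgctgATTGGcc
Ftl1: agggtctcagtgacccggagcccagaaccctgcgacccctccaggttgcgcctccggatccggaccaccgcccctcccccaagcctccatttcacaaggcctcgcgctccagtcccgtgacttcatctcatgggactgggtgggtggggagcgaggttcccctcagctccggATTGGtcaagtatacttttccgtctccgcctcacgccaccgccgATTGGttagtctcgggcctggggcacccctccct
The CCAAT box, searched on both strands, stood in the windows of 4 of the 6 members with a promoter in the table (Fth1, Ftl1, Tfrc and Cp) and in 33.8% of the 32851 promoters. The GC box GGGCGG, also on both strands, stood in those of Fth1, Ftl1, Tfrc and Ncoa4 and in 32.7% of all. The 6 members had 11 windows between them, which gives them more than a single chance each, and the 8 motifs were picked with the sequences in view. TGANNNNGC, the core of the antioxidant response element, stood in 35.2% of all promoters and in the windows of Slc11a1 and Ncoa4, and in neither ferritin window.

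Ncoa4 encodes the cargo receptor that carries ferritin to the lysosome for breakdown. WT libraries held 169 and 140.2 CPM at day 0, 96.8 and 113 at day 2, and 124 and 147 at day 4. KO libraries held 93.2 and 85.0, then 96.9 and 74.6, then 78.4 and 92.5 CPM. KO stayed within a narrow range over all 3 days and lay below WT at days 0 and 4. No change over time was called in either genotype. KO was 1.58-fold lower at day 4 (-0.66 ± 0.17, adjusted p = 0.0225), a call lost without WT day 4 replicate 2 (-0.54) or KO day 4 replicate 1 (-0.55), and the day 0 value of -0.80 ± 0.17 missed at adjusted p = 0.0612. In WT the day 2 libraries lay below those of day 0 (-0.56 ± 0.17, adjusted p = 0.0526) and of day 4 with no overlap, and the value from day 0 to day 4 was -0.19 ± 0.17.

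Hmox1 encodes the inducible heme oxygenase, which opens the heme ring and frees its iron. WT libraries held 627 and 600.3 CPM at day 0, 1381 and 996 at day 2, and 133 and 99.8 at day 4. KO libraries held 530.0 and 503, then 677 and 577, then 178 and 261 CPM. KO lay below WT at days 0 and 2 and above it at day 4, and in each genotype the mean was highest at day 2, as it was for Trf. In WT, Hmox1 rose 1.94-fold by day 2 (0.95 ± 0.23, adjusted p = 0.025) and then fell 10.2-fold from day 2 to day 4 (-3.35 ± 0.25, adjusted p = 3.23e-05), to end 5.28-fold below day 0. The WT rise lost its call without WT day 0 replicate 1 (0.97) or 2 (0.93), without WT day 2 replicate 1 (0.69), and when days 0 and 2 of WT were fitted alone (0.95, adjusted p = 0.0535). In KO the value from day 0 to day 2 was 0.28 ± 0.23, adjusted p = 0.553, and the gene fell 2.86-fold from day 2 to day 4 (-1.51 ± 0.23, adjusted p = 0.00126). KO over WT stood at -0.92 ± 0.23 at day 2 (adjusted p = 0.0578) and at 0.92 ± 0.23 at day 4 (0.0204), the latter lost without WT day 4 replicate 2 (0.72) or KO day 4 replicate 2 (0.61). The KO effect turned by 1.84 ± 0.32 between these days (adjusted p = 0.0286). That call was lost without any 1 of the WT libraries of days 2 and 4 (1.58 to 2.06), the KO libraries of day 0 (1.84) or the KO libraries of day 2 (1.72 and 1.96). It was also lost in the fit of days 2 and 4 alone (1.92, adjusted p = 0.0797).

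Slc40a1 encodes ferroportin, the exporter of cellular iron. Its WT libraries held 1426 and 996 CPM at day 0, 288 and 431 at day 2, and 3.96 and 5.18 at day 4, the last from 77 and 101 counts. KO libraries held 709.7 and 765, then 291 and 352, then 25.9 and 85.6 CPM. The genotypes overlapped at day 2, and at day 4 both KO libraries stood above both WT libraries. Slc40a1 fell 265-fold by day 4 in WT (-8.05 ± 0.65, adjusted p = 3.49e-05) and 13.2-fold in KO (-3.73 ± 0.53, adjusted p = 0.000918), the former the 72nd largest change among 12774 genes. The earlier WT fall, from day 0 to day 2, was 3.37-fold (-1.75 ± 0.49, adjusted p = 0.0437) and was called in 10 of 21 fits, but not without any 1 of the WT libraries (-1.49 to -2.07) or of the KO libraries of days 0 and 2 (-1.75 to -1.76).

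At day 4 Slc40a1 was 12.2-fold higher in KO than in WT (3.61 ± 0.55, adjusted p = 0.00321), and the size rested on the library: it was 4.22 without KO day 4 replicate 1 and 2.50 without replicate 2, called in each case. The KO effect changed by 4.32 ± 0.72 from day 0 to day 4 (adjusted p = 0.0141) and by 3.76 ± 0.71 from day 2 to day 4 (adjusted p = 0.0375). Without KO day 4 replicate 1 these stood at 4.94 and 4.38, and without replicate 2 at 3.22 and 2.66, all called. The 0 to 4 change lost its call without WT day 4 replicate 1 (4.14) or 2 (4.53) or without KO day 0 replicate 1 (4.27) or 2 (4.37), and the 2 to 4 change without any 1 library of WT day 2, WT day 4, KO day 0 or KO day 2 (3.44 to 4.02). Within KO, the log2 change from day 0 to day 4 was -3.11 without KO day 4 replicate 1 and -4.83 without replicate 2. The ratio of Tfrc to Slc40a1 TPM, receptor over exporter, was 0.20 and 0.17 in WT at day 0, 1.07 and 0.37 at day 2, and 111 and 98.4 at day 4. In KO it was 0.069 and 0.040, then 0.29 and 0.11, then 10.3 and 1.09, so the KO libraries of day 4 lay apart from each other and below those of WT.

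Cp encodes ceruloplasmin, the copper enzyme that oxidises iron so that transferrin can bind it after export, and it was the lowest member by mean TPM in every group. WT libraries held 14.7 and 29.3 CPM at day 0, 15.9 and 15.8 at day 2, and 0.93 and 1.23 at day 4, the last from 18 and 24 counts. KO libraries held 32.4 and 23.3, then 51.4 and 34.3, then 4.35 and 20.6 CPM. KO lay above WT at days 2 and 4, and KO day 4 replicate 2 reached the WT range of day 0. Cp fell 20.3-fold by day 4 in WT (-4.34 ± 0.76, adjusted p = 0.00149, and -3.75 without WT day 0 replicate 2), and the KO value of -1.16 ± 0.63 was not called (adjusted p = 0.166, but 0.00321 without KO day 4 replicate 2, at -2.67). KO was 11.5-fold higher at day 4 (3.52 ± 0.75, adjusted p = 0.0122), with 4.25 without KO day 4 replicate 1 and 2.01 without replicate 2. That call was lost without WT day 4 replicate 1 (3.33) or 2 (3.74) and in limma-voom (3.08, adjusted p = 0.142). A stretch of its promoter is printed because only Cp, of the 6 members, held TGANTCA in its windows, a loosened AP-1 motif. This motif was searched on both strands, with any base in the middle, and stood in 6.75% of all promoters. The match here, TGATTCA, has a T in the middle. AP-1 is the motif of the Jun and Fos proteins that the title of the series names, and their binding here was not tested. The stretch lies on GRCm38.p6 at chr3:19956865-19956894, plus strand, 189 to 160 bases before a start site, with the match in capitals.
Cp: caatgacatattTGATTCAtttttccttgg

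Across the 12 libraries the members fell into sets that moved alike, given here as a description over libraries that share their day and genotype. Slc11a1 was closest to Slc40a1 (Pearson r of log2 CPM 0.98) and Fth1 (0.98), and Hmox1 to Trf (0.95). Tfrc was closest to Slc11a2 (0.90) and ran against Cp (-0.76), Fth1 (-0.71) and Slc11a1 (-0.66). Among 9795 genes of at least 5 CPM on average, the closest to Trf was Rxra (0.99), to Slc40a1 Slc8b1 (0.99), to Slc11a1 Tlr8 (0.997), Lamp1 (0.997) and Fcgr3 (0.995), and to Fth1 Tanc2 (0.99). The closest to Ftl1 was Zfyve1 (0.99), to Hmox1 Kctd11 (0.97), to Tfrc Plxnd1 (0.97), to Slc11a2 Exoc5 (0.98) and to Cp Tlr1 (0.97). Ncoa4 had the loosest partner, Tbc1d23 at 0.90.

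The wider iron pathway was read from lists chosen with earlier results of these data known. Their counts stand against the shares of all genes given above: from day 0 to day 4, 27.6% lower and 29.1% higher in WT and 21.3% lower and 23.3% higher in KO, and at day 4, 14.5% higher and 11.1% lower in KO than in WT. Among 12 tested regulators, 7 fell and 1 rose from day 0 to day 4 in WT, and so did 7 and 1 in KO. Hfe, a partner of transferrin receptors in iron sensing, fell from 155 and 194 CPM to 9.88 and 5.33 in WT (-4.52 ± 0.39, adjusted p = 4.08e-05) and from 194 and 251 to 24.9 and 42.4 in KO (-2.72 ± 0.36, adjusted p = 0.000592). Nfe2l2, which encodes the stress factor NRF2, and Bach1, the repressor that heme releases from Hmox1, also fell in both genotypes. At day 4, 5 regulators were higher in KO and 1 was lower, with a list median of 0.43 beside -0.03 for all genes. Hfe (2.14 ± 0.36), Spic (1.97 ± 0.47), the factor of red-pulp macrophages, Nfe2l2 (1.22 ± 0.19), Keap1 (1.20 ± 0.19), which marks NRF2 for breakdown, and Zfp36 (0.80 ± 0.22), which shortens the life of Tfrc RNA, were higher. Aco1, whose product binds iron-responsive elements in ferritin and Tfrc RNA, was lower (-1.01 ± 0.13, adjusted p = 0.00164), at 65.4 and 52.5 CPM against 116 and 122. Ireb2, the other gene on the list for such a binding protein, was not called (-0.15 ± 0.08, adjusted p = 0.216), at means of 109 CPM in KO and 121 in WT.

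Most called genes of heme breakdown fell in WT, and most of heme building rose. Of 10 tested genes of heme uptake and breakdown, 8 fell and none rose from day 0 to day 4 in WT, and 7 fell and 1 rose in KO, where 27.6% and 21.3% of all genes fell. Slc48a1, which brings heme out of the lysosome, fell in WT (-2.37 ± 0.19) and in KO (-1.24 ± 0.18), as did Blvrb, a biliverdin reductase (-2.43 ± 0.22 and -1.64 ± 0.21). At day 4, Lrp1, the receptor for heme bound to hemopexin, was higher in KO (1.16 ± 0.18, adjusted p = 0.0027), as were Abcg2 and Blvrb, and Cd163 was lower on at most 16 counts a library. Of 14 tested genes of heme synthesis, 10 rose and 1 fell in WT, where 29.1% of all genes rose. In KO 3 rose and 2 fell, which is no more than the 44.6% called among all genes. Cpox, an enzyme late in the pathway, went from 22.0 and 19.4 to 44.1 and 41.1 CPM in WT (1.04 ± 0.11, adjusted p = 8.93e-05). At day 4, 6 of the 14 were lower in KO and 1, Alas1, the first enzyme of the pathway, was higher (1.06 ± 0.24, adjusted p = 0.0138), at 135 and 232 CPM against 90.1 and 86.6.

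Genes for iron-sulphur clusters, which mitochondria build from iron, were mostly called higher over time. Of 20 tested, 16 rose and 1 fell from day 0 to day 4 in WT, and 13 rose and 2 fell in KO, with list medians of 0.9997 and 0.63 beside -0.04 and -0.06 for all genes. Hspa9, the mitochondrial chaperone that helps to hand clusters on, went from 198 and 198 to 1347 and 1330.3 CPM in WT (2.76 ± 0.26, adjusted p = 4.78e-05) and from 204 and 172 to 752 and 403 in KO (1.62 ± 0.25, adjusted p = 0.00109). At day 4, 6 of the 20 were lower in KO and none was higher, a number of calls near the 25.6% of all genes, of which 11.1% were lower, among them Hspa9 (-1.21 ± 0.25) and Isca1 (-0.93 ± 0.19). KO day 4 replicate 1, with the higher osteoclast marker sum, lay nearer to WT for Hspa9 and Isca1.

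Of 17 tested genes of iron uptake and transport, 6 rose and 6 fell in WT from day 0 to day 4, and 3 rose and 6 fell in KO, not far from the 56.8% and 44.6% of all genes called. Steap3, a reductase that works with the transferrin receptor, rose by 1.84 ± 0.29 in WT and by 1.90 ± 0.29 in KO, and Slc39a8, a zinc and iron importer, fell in both (-1.72 ± 0.33 and -2.43 ± 0.34). Steap4 stood at 10.96 and 20.05 CPM in WT at day 4 and at 0.72 and 0.17 in KO, where 14 and 3 counts were seen. Of 10 NRF2 targets, 5 fell and 1 rose in WT, where 27.6% of all genes fell and 29.1% rose. In KO 2 fell and 1 rose, where 21.3% of all genes fell and 23.3% rose. The list medians were -0.78 in WT and -0.25 in KO, beside -0.04 and -0.06 for all genes. At day 4, 3 were higher in KO and none lower, against 14.5% of all genes higher and 11.1% lower. The list median was 0.75, beside -0.03 for all genes. The 3 were G6pdx (1.24 ± 0.28), Gclm (0.54 ± 0.14) and Osgin1 (1.35 ± 0.36), which supply reducing power, glutathione and a stress response. These lists share day 4 libraries with the members, so their counts stand side by side with those above and are not separate evidence.

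**Figure D5:**
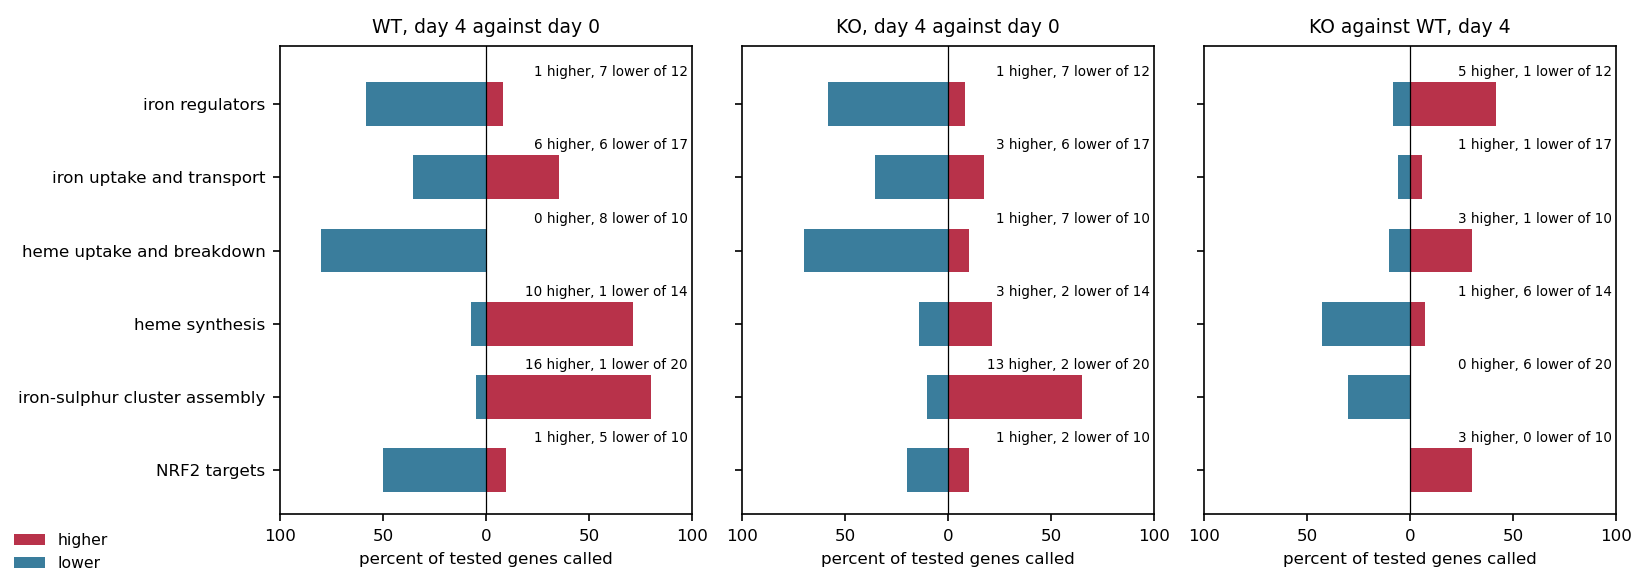
Percent of the tested genes of each list called higher (right of 0) or lower (left of 0) at an adjusted p under 0.05, for WT and KO from day 0 to day 4 and for KO against WT at day 4; the counts are printed in each row. Heme synthesis and iron-sulphur cluster assembly lean higher over time in WT and lower in KO against WT at day 4.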

How the data were processed

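RNA-seq libraries of WT and KO bone-marrow-derived macrophages at days 0, 2 and 4 were used, 12 of the 37 samples of the series; the 12 ATAC-seq and 13 CUT&Tag samples were not analysed here. Osteoblasts appear in the design text of the series, but osteoclasts in its title and in the labels, which were used. The count table as deposited holds expected counts per gene as whole numbers, and the deposited TPM table holds TPM computed by the authors. RSEM 1.3.1, DESeq2, STAR 2.7.3a and Trim Galore 0.6.1 are listed, per the submitters' processing notes, with no role stated. These notes name 2 builds, mm10 and mm9, so gene coordinates were not taken from the tables. Gene models and strand are not given in the sources used here.

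All 12 libraries were fitted together in edgeR 4.0.16 (R 4.3.3) with TMM scaling, filterByExpr (minimum count 10), 1 mean per group and robust quasi-likelihood F tests, two-sided. Benjamini-Hochberg adjustment ran over all 12774 genes tested in each of 12 comparisons, and a call is an adjusted p under 0.05. Each SE was taken as the size of the log2 fold change over the root of its F statistic. The code was tested on simulated data. Alternatives used DESeq2 1.42.0, limma 3.58.1 (limma-voom, and limma on log2(TPM + 1)), other scalings and filters, replicate blocks, a log2 fold change of at least 1, and left out each library in turn. The members, the 6 pathway lists and the 9 marker lists were chosen with earlier results of these data known. Named from each pathway list were up to 3 called genes per comparison with the smallest adjusted p; for each member, the closest genes by Pearson r. Promoters were matched by symbol in a RefSeq table on GRCm38.p6, which held 6 of the 10 members.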

Additional observations from a re-analysis of the deposited data

Results flagged for a closer look

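The effect of KO on a gene differed between days, by a test of the difference itself in edgeR's quasi-likelihood fit, for 4 of the iron handling genes. From day 0 to day 4 the log2 KO effect changed by 4.32 for Slc40a1 (adjusted p = 0.0141), by 1.86 for Slc11a1 (0.0161) and by 1.68 for Trf (0.00998). From day 2 to day 4 it changed by 3.76 for Slc40a1 (0.0375), by 1.84 for Hmox1 (0.0286) and by 1.46 for Trf (0.0276). In each case the KO value moved upward against WT, and the fitted KO effect went from below 0 at the earlier day to above 0 at day 4. These are not reversals with both sides called. Of the earlier KO effects only those of Trf were called, and its day 4 value of 0.57 was not (adjusted p = 0.0511). For Slc11a1 at day 0 (-0.055 ± 0.23) and Slc40a1 at day 2 (-0.16 ± 0.48) the genotypes overlapped.

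The same test passed for 13 genes of the wider iron lists, which are named because they were called. From day 0 to day 4, 2 of 12 regulators moved upward and 1 downward, and 1 of 17 uptake genes moved downward. For heme breakdown it was 1 of 10 upward, and for heme synthesis 1 upward and 2 downward of 14. For cluster assembly it was 2 of 20 downward, and for NRF2 targets 2 of 10 upward, where 8.56% of all genes were called. From day 2 to day 4, 1 heme breakdown gene and 1 NRF2 target were called, against 3.09% of all genes. From day 0 to day 4 the KO effect moved upward for Spic (2.82), Alas1 (1.83), G6pdx (1.51), Gclm (1.32), Slc48a1 (1.13) and Nfe2l2 (1.10). It moved downward for Fdxr (-1.99), Isca1 (-1.04), Slc25a39 (-1.02), Cpox (-0.81) and Aco1 (-0.74), with Fdxr, an enzyme that passes electrons to cluster assembly, at 31.6 and 29.2 CPM in WT and 15.8 and 6.88 in KO at day 4. Steap4 had a fitted change of -7.79, which rests on 0 and 2 counts in WT at day 0 and is no measure of size. From day 2 to day 4 it moved upward for Lrp1 (1.21) and Gclm (1.03).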

How the results depend on the processing

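With 2 libraries a group, the calls depend on the spread shared over all groups, and in simulated data most true 2-fold differences were missed. Of simulated 2-fold differences between KO and WT, 15% were called at day 0 and 14% at day 4. Of 4-fold differences, 90% and 87% were called. Where the simulated KO effect itself shifted between days 0 and 4, 1% of 2-fold and 41% of 4-fold shifts were called. The simulation gave all genes 1 common spread and changed 100 genes at each fold, of 12412 genes at day 4. Far more genes were called in the data at day 4, so these shares need not hold for it. There Slc11a2 (1.94-fold), Ftl1 (1.96), Hmox1 (1.89) and Ncoa4 (1.58) were called between KO and WT, and Tfrc (2.57) and Trf (1.48) were not. A value near 2-fold that was not called is still little evidence of no change. The counts of members called are given here, with the count of edgeR's fit of all 12 libraries first. KO against WT at day 0 called 1 member, but 2 with DESeq2 size factors in edgeR or a stricter filter, 4 in DESeq2's Wald test, 3 in limma on log2(TPM + 1) and 0 when only the libraries compared were fitted. At day 2 it called 1, but 3 in DESeq2, 3 in limma on log2(TPM + 1), 2 with only the libraries compared and 0 with a log2 fold change of at least 1. At day 4 it called 8, and 10 in DESeq2, 10 with either replicate block, 9 in limma on log2(TPM + 1) or with a stricter filter and 7 in limma-voom, but 0 with only the libraries compared and 4 with a log2 fold change of at least 1. WT from day 0 to day 2 called 2, but 4 in DESeq2, 1 with no filter on low counts and 1 with a log2 fold change of at least 1. KO from day 0 to day 2 called 0, but 2 in DESeq2, 1 in limma on log2(TPM + 1) and 2 with only the libraries compared. For the shift of the KO effect between days 0 and 4, 3 were called, but 7 in DESeq2, 5 in limma on log2(TPM + 1) and 1 with only the libraries compared, and between days 2 and 4 3 were called, but 5 in DESeq2 and 0 with only the libraries compared. All genes moved too: DESeq2 called 5.9% of them for KO against WT at day 0, 12.8% at day 2 and 31% at day 4, against 1.58%, 4.52% and 25.6%, and for the shift of the KO effect 16.3% between days 0 and 4 and 8.66% between days 2 and 4, against 8.56% and 3.09%. For the settings other than DESeq2 no share of all genes is given beside these counts, so whether members moved more than all genes cannot be read. Which step caused each shift was not tested, but fits of fewer libraries have fewer degrees of freedom by construction.

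Leaving out each library in turn gave 0 to 3 members for KO against WT at day 0, 0 to 3 at day 2 and 4 to 8 at day 4. It gave 0 to 5, 8 to 8 and 7 to 8 for WT from day 0 to 2, 0 to 4 and 2 to 4, and 0 to 1, 5 to 9 and 5 to 8 for KO. For the shift of the KO effect it gave 0 to 0 between days 0 and 2, 1 to 7 between days 0 and 4 and 0 to 6 between days 2 and 4. The lone library left in a group is then assumed to vary like those of the other groups. No share of all genes stands beside these counts, so they do not show whether the members moved more than all genes.

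The replicate numbers were not taken to pair the libraries, since the labels tie them to no animal, culture or day and there are only 2 numbers. Differences between replicates 2 and 1 correlated across genes at 0.23, 0.098 and 0.31 between days in WT and at 0.64, 0.45 and 0.47 in KO. Between genotypes the values were -0.37 at day 0, -0.10 at day 2 and -0.058 at day 4. Within KO, libraries of the same number thus deviated together, a hint from the data and not from the design. With the replicate number as a block, 3 members were called for KO against WT at day 0 and 2 at day 2. With a block within each genotype, 3 were called at day 0 and 3 at day 2, 2 for KO from day 0 to day 2, and 6 for the shift of the KO effect between days 0 and 4. The block ended no call of a member. How many of all genes were called with a block is not given here. On the TPM scale the median of all genes shifted by up to 0.16 (WT from day 0 to day 4), and the calls of WT from day 0 to day 2 split into 1247 higher and 648 lower against 1029 and 1182, and those of KO against WT at day 2 into 331 and 347 against 395 and 182.

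Signs turned only for values that were not called. With each library left out in turn, KO against WT at day 0 ranged from -0.10 to 0.92 for Cp (turned by WT replicate 1), from -0.080 to 0.62 for Fth1 (WT replicate 2) and from -0.16 to 0.035 for Slc11a1 (WT replicate 1 or KO replicate 1), and at day 2 from -0.43 to 0.16 for Slc40a1 (WT replicate 2). From day 0 to day 2 in WT the range was -0.90 to 0.12 for Cp (day 0 replicate 2), -0.60 to 0.096 for Fth1 (day 0 replicate 1) and -0.46 to 0.50 for Tfrc (day 0 replicate 2 or day 2 replicate 1). Over those days in KO it was -0.0015 to 0.29 for Fth1 (day 2 replicate 2) and -0.27 to 0.12 for Ncoa4 (day 0 replicate 1 or day 2 replicate 2), with Ncoa4 at 0.0030 on the TPM scale. For KO from day 0 to day 4, Ncoa4 ranged from -0.18 to 0.055 (day 0 replicate 1 or day 4 replicate 1) and stood at 0.033 on the TPM scale. For KO from day 2 to day 4, Ncoa4 ranged from -0.20 to 0.20 (day 2 or day 4 replicate 1) and stood at 0.0084 with no filter, 0.0017 in limma-voom, 0.030 on the TPM scale and 0.0046 with the block within genotype. Over the same days Ftl1 ranged from -0.74 to 0.058 and Slc11a2 from -0.057 to 0.21, both turned by KO day 4 replicate 1. The shift of the KO effect ranged from -0.40 to 0.015 for Slc11a2 between days 0 and 4 (WT day 0 replicate 2), and for Tfrc from -0.072 to 1.09 between days 0 and 2 (KO day 2 replicate 1) and from -0.39 to 1.16 between days 2 and 4 (KO day 4 replicate 1).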
